A study of Caenorhabditis elegans with 2 samples.

Results

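Many C. elegans genes lie one behind another on the same strand, so that the 3′ end of 1 gene faces the start of the next across a stretch of intergenic DNA. The sites described here are candidate sites of chromatin immunoprecipitation followed by sequencing (ChIP-seq) for the Argonaute protein HRDE-1 that fell in such stretches on the 5 autosomes. A member is a summit of the pooled list that lay inside no protein-coding gene and over 500 bp from every tRNA, snoRNA and snRNA gene start, and whose nearest protein-coding genes on both sides had the same strand. Of 30000 pooled candidates, 4276 were members. The stretch between the genes is called the spacer, the gene whose 3′ end borders it the upstream gene, and the gene whose start borders it the downstream gene. Position alone chose the members, so signal values and list membership were not used to find them.

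HRDE-1, also named WAGO-9 in the labels, is a nuclear Argonaute of the germ line that is loaded with small RNAs antisense to transcripts. It is known for silencing at the level of nascent RNA that can pass between generations. Spacers between tandem genes differ in kind: some short ones lie within operons, in which several genes are transcribed from 1 upstream promoter and the downstream messages receive a spliced leader, whereas long ones usually hold the promoter of the downstream gene. No operon annotation was used here.

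Both biological replicates came from strain YL557, hermaphrodites collected as young adults 48 hours after synchronization by starvation at L1, carrying HRDE-1 with GFP and FLAG at its C-terminus. There was no second genotype or treatment, and the labels do not say whether an untagged copy remained. Whole animals were used, so signal from germ line and soma is mixed, and lists of sites offer no marker expression with which to check the tissue. The precipitation used an antibody against GFP according to the description, while the antibody field reads hrde-1.

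The deposited lists comprised 24269 candidates in replicate 1 and 30000 each in replicate 2 and the pooled list. From the pooled list the authors kept 1341 sites after a threshold on the irreproducible discovery rate (IDR), here called IDR sites, or 4.47% of the candidates. All other sites are called other candidates. Signal values are the caller's score of a site, whose scale the deposited lists leave unnamed, and serve only to rank sites within a list. The IDR sites were the strongest of the pooled list, so each comparison of IDR sites with other candidates is also one of strong with weak sites. Read depth per sample is unknown. Tests of side count spacers of the pooled list, and those of orientation count candidates. Neither counts replicates, both take the counted units as independent, and the intervals below are exact 95% intervals (Clopper-Pearson for shares) that cover counting error of sites only. The control was not analysed here.

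Among the members, 280 were IDR sites, or 6.55% (95% interval 5.82 to 7.33%), in 269 spacers. The share was 6.75% over all 7391 autosomal candidates that lay between protein-coding genes and away from the small RNA genes. IDR members had signal values from 73.97 to 406.7 with a median of 97.3, and the other 3996 members had a median of 23.7. The weakest IDR member, between ZK856.16 and ZK856.11, had a signal value of 73.97, and the strongest member outside the list, between rpt-4 and F23F1.10, had 73.88. Both lists had intervals with a median width of 456 bp, which exceeds the whole length of many short spacers. A summit of replicate 1 lay within 100 bp of 252 of the 280 IDR members, a summit of replicate 2 of 273, and both of 246.

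The sites below were chosen by signal on chromosomes II to V: the strongest of all, and the strongest on each side of a spacer of up to 500 bp and of one over 1000 bp. Each is given from the RefSeq genome on build ce11, 5′ to 3′ in the direction of both genes, clipped to the spacer so that no gene sequence is included, and the 21 bases in capitals are centred on the summit. The acs-19/rpl-3 stretch is chrIII:3867455-3867655 on the plus strand, C16A11.4/C16A11.3 is chrII:4229179-4229379 on the plus strand and herd-1/sql-1 is chrIII:12499365-12499556 on the plus strand. The top-2/ZK930.6 stretch is chrII:11880589-11880769 on the plus strand, and its first base is the first after the annotated 3′ end of top-2. The pqn-13/C14C11.7 stretch is chrV:5667423-5667623 on the minus strand.
acs-19/rpl-3: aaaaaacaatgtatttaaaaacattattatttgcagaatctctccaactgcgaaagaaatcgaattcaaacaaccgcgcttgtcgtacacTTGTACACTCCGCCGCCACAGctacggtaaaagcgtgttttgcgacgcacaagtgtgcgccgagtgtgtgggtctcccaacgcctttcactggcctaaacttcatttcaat
C16A11.4/C16A11.3: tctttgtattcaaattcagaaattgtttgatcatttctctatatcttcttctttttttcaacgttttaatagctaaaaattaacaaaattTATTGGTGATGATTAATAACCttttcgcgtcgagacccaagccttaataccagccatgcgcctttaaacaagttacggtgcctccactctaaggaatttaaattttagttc
herd-1/sql-1: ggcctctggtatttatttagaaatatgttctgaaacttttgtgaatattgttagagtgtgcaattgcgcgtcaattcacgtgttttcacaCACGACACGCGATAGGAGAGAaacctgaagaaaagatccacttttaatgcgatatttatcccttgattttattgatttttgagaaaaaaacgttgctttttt
top-2/ZK930.6: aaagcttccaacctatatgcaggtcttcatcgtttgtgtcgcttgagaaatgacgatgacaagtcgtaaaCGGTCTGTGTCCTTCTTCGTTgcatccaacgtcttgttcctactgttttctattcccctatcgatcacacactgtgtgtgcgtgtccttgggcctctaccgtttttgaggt
pqn-13/C14C11.7: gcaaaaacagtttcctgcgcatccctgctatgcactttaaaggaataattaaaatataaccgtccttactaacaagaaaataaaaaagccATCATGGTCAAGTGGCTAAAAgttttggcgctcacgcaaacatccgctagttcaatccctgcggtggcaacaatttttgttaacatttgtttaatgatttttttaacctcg
The GC content of these stretches was 44.3%, 31.8%, 34.4%, 46.4% and 37.3% in this order. The top-2 stretch held no soft-masked base, whereas 144 of 201 bases of the C16A11.4 stretch were soft-masked. The C16A11.4 site had a pooled signal of 189.7, with 138.3 in replicate 2 and no summit of replicate 1 within 100 bp. Another IDR site of that spacer lay on the downstream side, 321 bp past C16A11.4 and 67 bp before C16A11.3. Its signal was 109.5, with 62.1 in replicate 1 and 73.1 in replicate 2.

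IDR sites lay nearer the 3′ end of the upstream gene than the start of the downstream gene in 212 of 280 cases, and nearer the start in 68. Counting each spacer once by its strongest IDR site, the site was on the upstream side in 204 of 269 spacers, or 75.8% (70.3 to 80.8%; two-sided exact binomial test against 50%, p = 6.9e-18). Among spacers that held other candidates only, the strongest was on the upstream side in 1390 of 2398, or 57.96% (55.96 to 59.95%; exact p = 6.4e-15). Measured from stop and start codons in place of the annotated gene ends, the share fell to 57.2% for IDR sites (exact p = 0.0203) and 48.1% for other candidates (exact p = 0.0632), and the odds ratio with length held fixed was 2.11 (exact p = 1.5e-07). With spacer length held fixed in 5 classes, the odds of lying on the upstream side were 2.52 times higher for IDR sites than for other candidates (1.86 to 3.44; two-sided exact Cochran-Mantel-Haenszel test, p = 1.4e-10). Without regard to length they were 2.28 times higher (1.69 to 3.09; Fisher's exact test, two-sided, p = 6.3e-09). The summits of IDR members lay a median of 161.5 bp past the upstream 3′ end, with quartiles of 101.8 and 266.5 bp. To the downstream start the median was 372 bp, with quartiles of 176.3 and 1972 bp. Other candidates lay a median of 586 bp from the upstream 3′ end and 968.5 bp from the downstream start.

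In long spacers most IDR sites lay on the upstream side. Length classes include their upper bound. In spacers of 2000 to 5000 bp the IDR site was on the upstream side in 40 of 44 spacers (90.9%, 78.3 to 97.5%; exact binomial test, Benjamini-Hochberg adjusted over 10 tests, p = 8.5e-08), and in those over 5000 bp in 28 of 31 (90.3%, 74.2 to 97.96%; adjusted exact p = 9.3e-06). The share was 28 of 34 at 1000 to 2000 bp (82.4%, 65.5 to 93.2%; adjusted exact p = 0.00028) and 37 of 45 at 500 to 1000 bp (82.2%, 67.9 to 91.998%; adjusted exact p = 2.6e-05). From stop and start codons the last share was 60.0% (adjusted exact p = 0.259), while those at 2000 to 5000 bp and over 5000 bp were again 90.9% and 90.3%. Among other candidates the share was 65.2% at 1000 to 2000 bp, 63.7% at 500 to 1000 bp and 60.2% at 2000 to 5000 bp, each past the threshold of 0.05 on the adjusted exact p. The value at 500 to 1000 bp was 50.4% from stop and start codons (adjusted exact p = 0.922). It was 54.6% over 5000 bp (49.8 to 59.2%; adjusted exact p = 0.0655), where the test did not pass.

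**Figure D1:**
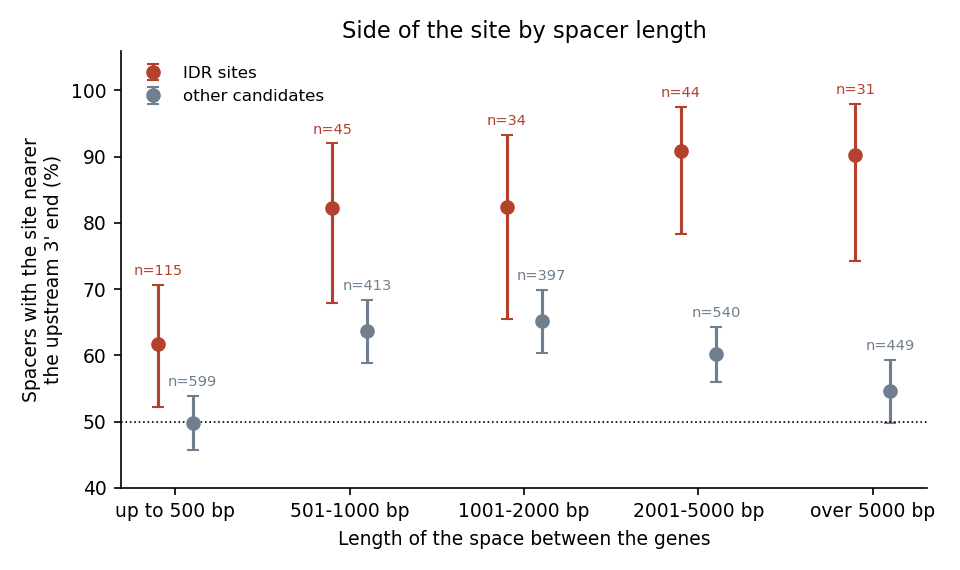
The share of spacers whose site lay nearer the upstream 3′ end (percent, vertical axis) is plotted by spacer length for IDR sites (red) and other candidates (grey), with 1 site per spacer, exact 95% intervals as bars and the number of spacers above each. The dotted line is 50%; the red points rise from 61.7% in spacers of up to 500 bp to 90.9% at 2000 to 5000 bp, and the grey points stay between 49.7% and 65.2%.

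In spacers of up to 500 bp the sites were more evenly placed. IDR sites were on the upstream side in 71 of 115 spacers (61.7%, 52.2 to 70.6%; adjusted exact p = 0.0187) and other candidates in 298 of 599 (49.7%, adjusted exact p = 0.935). Runs without 1 replicate took the strongest 1341 sites of the other's own list in place of the IDR list. Their share was 58.1% without replicate 1 (adjusted exact p = 0.116) and 56.6% without replicate 2 (adjusted exact p = 0.229), so neither replicate's own list gave this call. When distances were taken to the stop and start codons in place of the annotated gene ends, the share of IDR sites turned to 27.8% (adjusted exact p = 7.2e-06). The middle tercile of these spacers held 57 of 117 IDR summits, the upstream tercile 32 and the downstream tercile 28. Of the 117 intervals, 65 reached into both neighbouring genes and 7 into neither.

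The difference in side between IDR sites and other candidates was also tested within each class by Fisher's exact test, adjusted over 5 tests. The odds ratio was 7.75 over 5000 bp (2.34 to 40.4; adjusted exact p = 0.00012) and 6.60 at 2000 to 5000 bp (2.34 to 25.8; adjusted exact p = 8.0e-05). It was 2.48 at 1000 to 2000 bp (0.977 to 7.51; adjusted exact p = 0.0566), 2.63 at 500 to 1000 bp (1.17 to 6.72; adjusted exact p = 0.0216) and 1.63 up to 500 bp (1.06 to 2.52; adjusted exact p = 0.0241). From stop and start codons the odds ratio was 1.48 at 500 to 1000 bp and 1.33 up to 500 bp (adjusted exact p = 0.272 for both). The sizes at 2000 to 5000 bp and over 5000 bp, given here in this order, moved with the choice of sites while the test still passed. They were lower, at 3.29 and 3.58, with no distance from small RNA genes, and at 3.85 and 4.68 against the other candidates in the upper tercile of signal. Without soft-masked summits they were 11.7 and 4.63, and without replicate 2 they were 13.9 and 11.7. With the stronger part of the IDR list the value at 2000 to 5000 bp was 14.05. The odds ratio at 1000 to 2000 bp passed without replicate 1 (3.54, adjusted exact p = 0.00995) and without replicate 2 (4.87, adjusted exact p = 0.00172). The call up to 500 bp was lost without replicate 1 (1.36, adjusted exact p = 0.155) and without replicate 2 (1.39, adjusted exact p = 0.161). No test was made of whether the odds ratio itself changed with length.

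**Figure D2:**
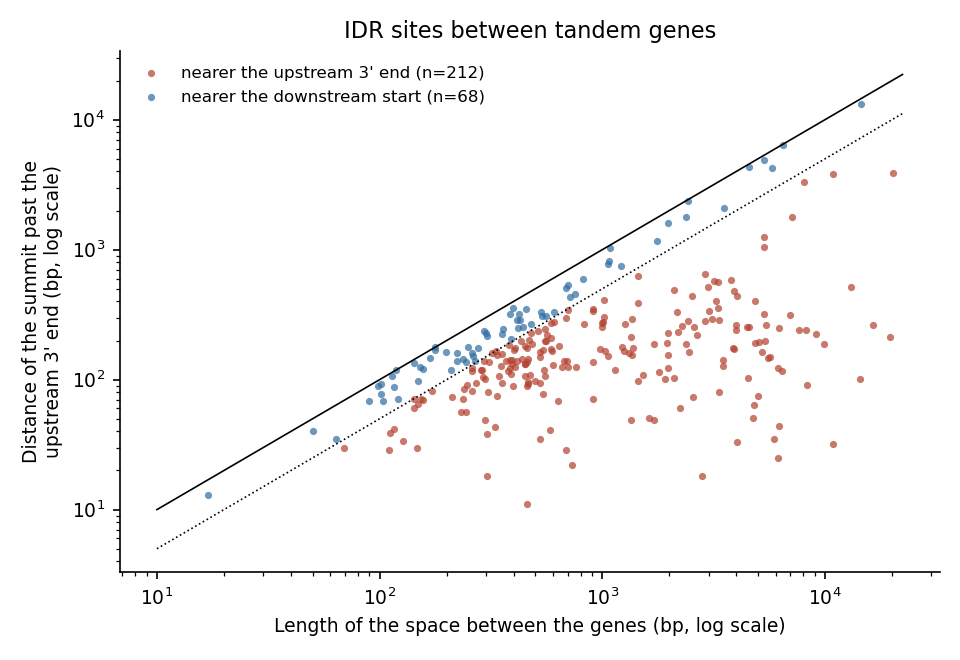
Each point is 1 of the 280 IDR sites between tandem genes, with the length of its spacer on the horizontal axis and the distance of its summit past the upstream 3′ end on the vertical axis, both in bp on log scales. The solid line marks the downstream start and the dotted line the middle of the spacer; 212 red points lie nearer the upstream 3′ end and 68 blue points nearer the downstream start, and in spacers over 1000 bp 102 of 116 points are red.

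Spacers over 1000 bp separate both ends by more than the width of a site. Of the 116 IDR sites there, 60 lay in the first 250 bp past the upstream 3′ end, 4 in the last 250 bp before the downstream start and 52 between. Per megabase of annotated spacer this was 65.2 IDR sites in the first 250 bp, 4.35 in the last 250 bp and 4.25 between. The first 250 bp thus had the higher density, and the density before the start was close to that of the rest of the spacer. Other candidates also were densest past the 3′ end, with 500.95 per Mb in the first 250 bp, 240.2 in the last 250 bp and 172.8 between. Of the candidates in the first 250 bp, 60 of 521 were in the IDR list (11.5%, 8.90 to 14.6%), against 4 of 225 in the last 250 bp (1.78%, 0.486 to 4.49%) and 52 of 2164 between (2.40%, 1.80 to 3.14%).

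With 1 site per spacer, 58 IDR sites lay in the first and 4 in the last 250 bp (93.5%, 84.3 to 98.2%; two-sided exact binomial test, p = 2.6e-13), and 336 and 110 other candidates (75.3%, 71.1 to 79.3%; exact p = 1.1e-27). The odds ratio between them was 4.74 (1.70 to 18.4; Fisher's exact p = 0.00057). It was 9.58 without replicate 2, 11.4 with no other gene in the spacer, 7.18 with all sites counted, and 2.80 against the other candidates in the upper tercile of signal alone (exact p = 0.0620). Measured from stop and start codons, the share of IDR sites in the upstream window no longer passed (71.4%, exact p = 0.180), nor did the difference between the lists (odds ratio 2.11, exact p = 0.270). Members lay outside whole genes, so the part of such a window between codon and gene end could hold none. This run therefore cannot tell a weaker excess from a smaller usable window. With windows of 100 bp the odds ratio was 2.68 and did not pass (exact p = 0.247).

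**Figure D3:**
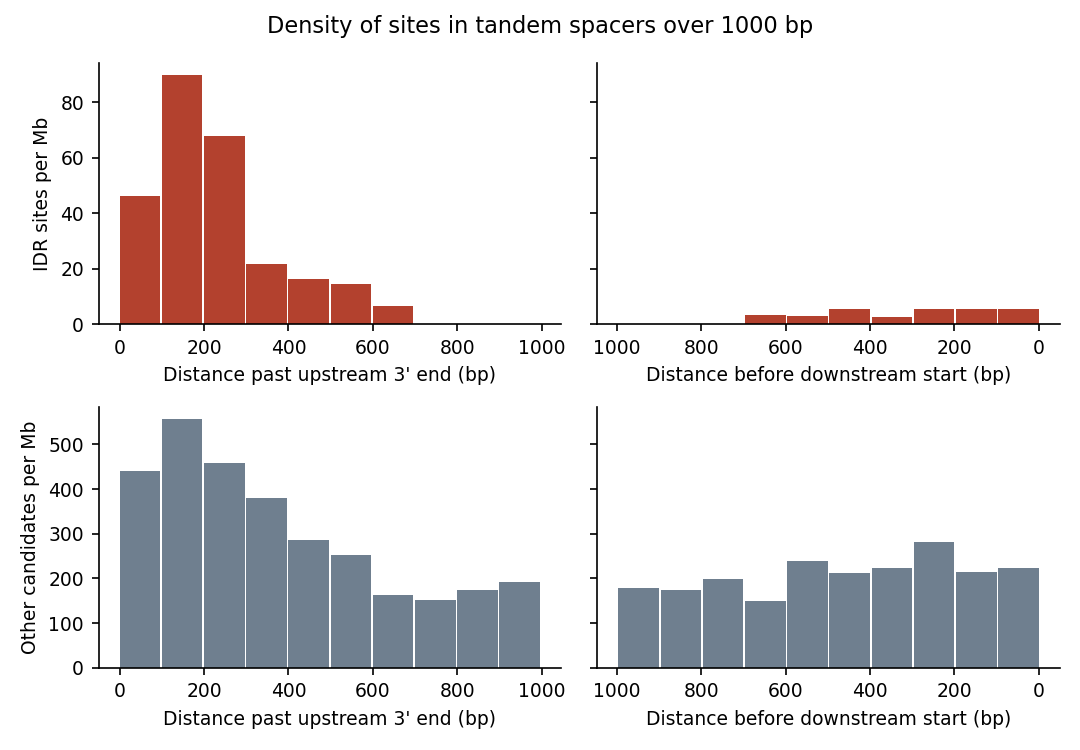
The density of sites (sites per Mb of annotated spacer, vertical axes) is plotted in steps of 100 bp from the upstream 3′ end (left panels) and from the downstream start (right panels, read towards the gene at 0) in tandem spacers over 1000 bp, up to the middle of each spacer, for IDR sites (upper panels) and other candidates (lower panels, on another scale). IDR sites are densest from 101 to 200 bp past the 3′ end, with 33 sites or 89.6 per Mb, and no step before the start exceeds 5.43 per Mb.

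The finer profile in these long spacers had its highest step from 101 to 200 bp past the 3′ end, with 33 of 116 IDR sites. The step from 1 to 100 bp held 17 and the step from 201 to 300 bp held 25. The following steps of 100 bp held 8, 6, 5 and 2 IDR sites in this order. No IDR site lay from 701 to 1000 bp past the upstream 3′ end within the upstream part of its spacer. The upstream tercile of these spacers held 84.5% of IDR sites and 43.1% of other candidates, and the downstream tercile 9.48% and 32.1%.

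The replicates' own lists gave values near these when the strongest 1341 sites of each were taken in place of the IDR list. In spacers over 1000 bp, 102 of 113 such sites of replicate 1 (90.3%) and 110 of 123 of replicate 2 (89.4%) lay nearer the upstream 3′ end, a mean of 89.8% ± 0.590 (SD, n = 2). The other candidates of the replicates there were at 55.6% ± 0.603 (SD, n = 2). Over all spacers the strongest sites were at 74.7% ± 0.209 and the others at 55.2% ± 0.0857 (SD, n = 2 each). In spacers of up to 500 bp the strongest sites were at 57.2% ± 1.06 and the others at 48.3% ± 1.74 (SD, n = 2 each). The median distance past the upstream 3′ end was 166 bp in replicate 1 and 160 bp in replicate 2. No test over the 2 replicates was made.

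**Figure D4:**
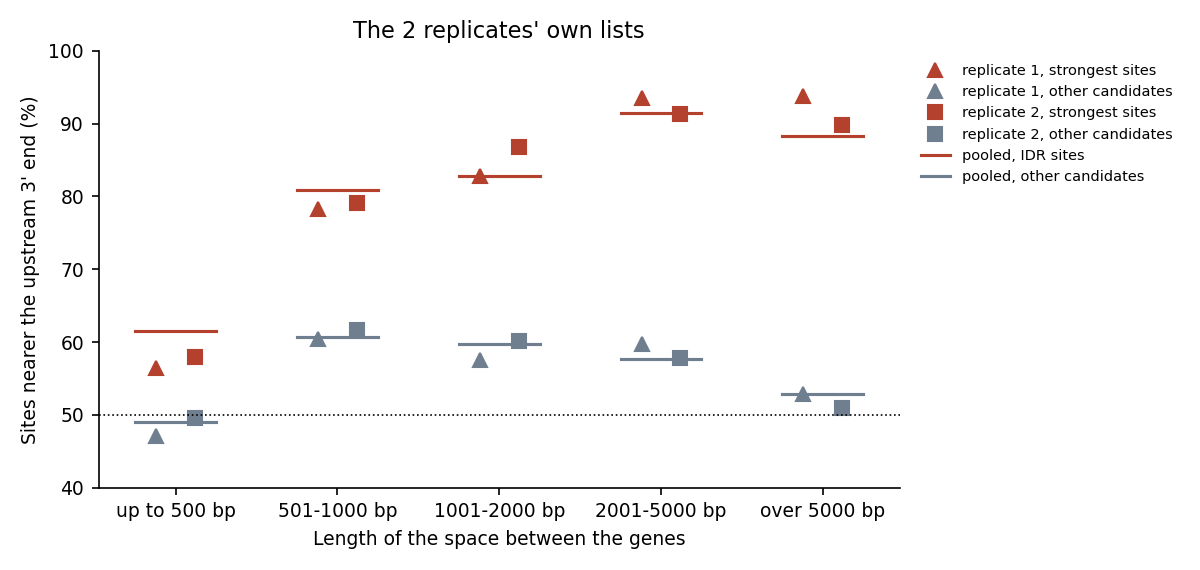
The share of sites nearer the upstream 3′ end (percent, vertical axis) is plotted by spacer length for replicate 1 (triangles) and replicate 2 (squares), each from its own list, with the strongest 1341 sites in red and the other candidates in grey, and the pooled values of IDR sites and other candidates as lines. In every class both red points lie above both grey ones, from 56.5% and 57.98% against 47.1% and 49.5% in the shortest spacers.

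Within the members the share on the upstream side was higher at higher signal. In quintiles of signal over all members, from the lowest to the highest, it was 48.9%, 52.05%, 53.98%, 59.9% and 69.0%. In spacers over 1000 bp the same quintiles had 48.6%, 51.5%, 55.4%, 63.6% and 77.7%. In those of up to 500 bp they had 52.3%, 55.2%, 45.0%, 46.6% and 54.3%, with no order. These are descriptions without a test, since the IDR list is itself the top of the signal. Among the IDR members, signal values on the upstream side had a median of 98.9 (quartiles 80.6 and 116.5, n = 212), and those on the downstream side 93.7 (82.2 and 114.4, n = 68), so both ranges overlapped over most of their length.

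All 5 autosomes had most of their IDR members on the upstream side. The count was 47 of 59 on chromosome I, 47 of 61 on II, 44 of 60 on III, 42 of 60 on IV and 32 of 40 on V, or 70% to 80%. Other candidates ranged from 54.1% on III to 57.5% on I. Chromosome V had the lowest share of members in the IDR list, with 40 of 788 (5.08%), and II the highest, with 61 of 839 (7.27%).

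Short spacers held IDR sites far more densely than long ones. The annotation had 8716 autosomal tandem spacers with a median length of 779 bp, and 3.09% of them (2.73 to 3.47%) held an IDR site. All spacer counts and lengths used for shares and densities include DNA within 500 bp of small RNA gene starts, where no member could lie. The share of spacers with an IDR site was 3.53% up to 500 bp, 2.54% at 500 to 1000 bp, 2.35% at 1000 to 2000 bp, 3.13% at 2000 to 5000 bp and 3.73% over 5000 bp. Since long spacers have more DNA, the density fell from 164.6 IDR sites per Mb in the shortest class to 4.51 in the longest. The share of candidates that were IDR sites was 14.9% in the shortest class and 2.67% in the longest.

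The 2 other kinds of spacer, with genes pointing at each other (convergent, with 3′ ends on both sides) or away from each other (divergent, with starts on both sides), bracket the tandem case. IDR sites made up 85 of 900 candidates in convergent spacers, or 9.44% (7.61 to 11.5%), and 134 of 2215 in divergent ones, or 6.05% (5.09 to 7.12%). The odds of being an IDR site were lower in tandem than in convergent spacers (odds ratio 0.672, 0.519 to 0.877; Fisher's exact test, adjusted over 2 tests, p = 0.00644), and the difference from divergent spacers did not pass (1.09, 0.876 to 1.36; adjusted exact p = 0.454). These tests count every candidate, and several can share a spacer. With 1 site per spacer the first odds ratio was 0.721 (adjusted exact p = 0.0364) and the second 1.06 (adjusted exact p = 0.614). Neither version held spacer length fixed. The median spacer had 554 bp in convergent, 779 bp in tandem and 1188 bp in divergent orientation. Over 1000 bp, convergent spacers held 24 IDR sites and 546 other candidates. Tandem spacers there held 116 and 2794, and divergent ones 64 and 1559. The shares of candidates in the IDR list were thus nearly alike in all orientations over 1000 bp, unlike those over all lengths. Whether the difference remains at equal length was not tested. Within tandem spacers, 8.74% of candidates nearer the upstream 3′ end were IDR sites (7.65 to 9.94%), and 3.68% of those nearer the downstream start (2.87 to 4.64%). The upstream value lay inside the convergent interval, while the downstream value lay below the divergent one. In divergent spacers over 1000 bp, 22 of 64 IDR sites (34.4%) and 276 of 1559 other candidates (17.7%) lay within 250 bp of a start. In convergent spacers of that length, 15 of 24 IDR sites (62.5%) and 168 of 546 other candidates (30.8%) lay within 250 bp of a 3′ end. The comparison of 1 side with another orientation was not tested.

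**Figure D5:**
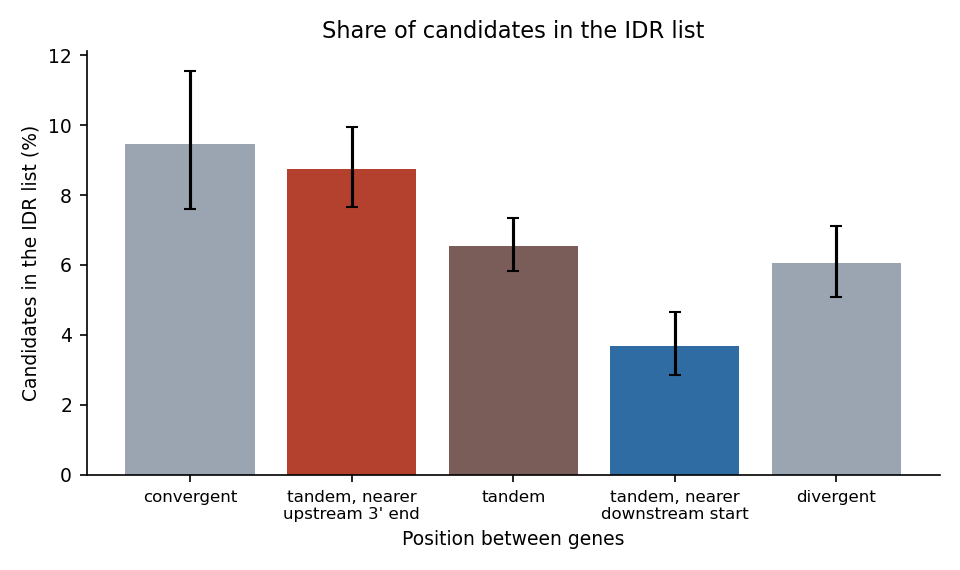
Bars give the percent of autosomal candidates that are IDR sites for convergent, tandem and divergent spacers and for each side of the tandem spacers, with exact 95% intervals. Spacer length is not held fixed. The values are 9.44% for convergent spacers, 8.74% and 3.68% for the sides of tandem spacers nearer the upstream 3′ end and the downstream start, 6.55% for all tandem spacers and 6.05% for divergent spacers.

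The strongest site of all members was among the minority nearer a downstream start. It lay 299 bp before rpl-3, which encodes a protein of the large ribosomal subunit, and 457 bp past acs-19, at chromosome III 3867555, with a signal of 406.7 in the pooled list, 126.0 in replicate 1 and 282.1 in replicate 2. Next on that side came C06A1.6/cdc-48.1, 173 bp before the gene of an AAA ATPase that unfolds ubiquitinated proteins. Its signal was 245.5, with 68.8 in replicate 1 and 177.9 in replicate 2. The site 226 bp before wwp-1, a ubiquitin ligase gene, lay 309 bp past icd-2, a gene of the nascent polypeptide-associated complex, with a signal of 206.5 and an ncRNA gene over its summit. herd-1/sql-1 (198.4), rpl-26/suf-1 (198.0) and F01G4.6/pigq-1 (179.4) followed, all in spacers of at most 264 bp. suf-1 encodes a subunit of the cleavage stimulation factor of mRNA 3′ ends. The F01G4.6/pigq-1 spacer had 17 bp, and replicate 1 had no summit within 100 bp of that site.

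On the upstream side the strongest site lay 81 bp past top-2, a topoisomerase II gene, and 3279 bp before ZK930.6, and the first of the printed long-spacer stretches is its sequence. Its signal was 293.9, with 83.3 in replicate 1 and 214.2 in replicate 2. The ncRNA gene ZK930.13 and the miRNA gene cel-mir-45 started 283 and 370 bp from this summit. The site 248 bp past cgh-1, which encodes a DEAD-box RNA helicase of germ granules, had 287.0 (74.6 and 212.5 in replicates 1 and 2). The next protein-coding gene, mup-4, started 5967 bp away, but the ncRNA genes C07H6.17 and C07H6.15 started 60 and 159 bp from the summit. A site 241 bp past rps-6, of the small ribosomal subunit, had 252.7 (77.5 and 186.9), with 3755 bp to Y71A12B.10. These 3 sites lay within 250 bp of the upstream 3′ end in spacers of 3359, 6214 and 3995 bp.

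Shorter spacers among the 12 strongest sites included ima-2/hrpk-1, where ima-2 encodes a germline importin alpha. The summit lay 144 bp past ima-2 in a spacer of 434 bp, with a signal of 231.7. The tol-1/W04C9.4 site lay 111 bp past tol-1, a Toll receptor gene, with 217.7, and mei-2/bag-1 102 bp past mei-2, a katanin subunit gene of the meiotic spindle, with 203.6. Y53F4B.9/Y53F4B.10 was the strongest site in spacers of 1000 to 2000 bp, 155 bp past the upstream gene, with 212.7. At 500 to 1000 bp the strongest upstream site was 278 bp past Y73B6BL.29 and 329 bp before sqd-1, a gene of an hnRNP-like RNA-binding protein, with 166.6. Between C33H5.16 and sgo-1, a shugoshin gene, a spacer of 5335 bp held 3 IDR sites: 1 of 223.6 with its summit 1254 bp past C33H5.16, 1 of 79.0 at 1055 bp and 1 of 118.8 that lay 413 bp before sgo-1. It was the only spacer with more than 2 IDR sites, and 10 spacers held 2 or more. Sites were counted by summit, and the summits at 1254 and 1055 bp shared 1 interval. The 280 IDR sites had 278 distinct intervals.

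In spacers over 1000 bp, 14 IDR sites lay nearer the downstream start, and most of them were not close to it. The strongest was the printed pqn-13/C14C11.7 site, 2081 bp past pqn-13, which encodes a protein rich in glutamine and asparagine, and 1437 bp before C14C11.7. Its signal was 150.8, with 53.0 in replicate 1 and 97.2 in replicate 2. clec-196/hsp-1 followed with 125.3, 460 bp before hsp-1, the gene of a constitutive HSP70 chaperone, and an ncRNA gene lay over its summit. The 4 that lay within 250 bp of the start were upstream of K07C5.13 (55 bp), C14B1.8 (198 bp), T26G10.1 and mep-1 (50 bp), with signal values of 86.7, 83.5, 78.7 and 78.5. Replicate 2 had no summit within 100 bp of the first, and replicate 1 none of the last. All 4 were below the median signal of the IDR members.

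Gene groups were counted as upstream and as downstream gene of IDR members, with no test, against 269 of 8716 upstream genes over all spacers (3.09%) and the same number of downstream genes. Of 38 ribosomal protein genes that bordered a tandem spacer with their 3′ end, 14 (36.8%) had an IDR site in that spacer, and of 22 that bordered one with their start, 2 (9.09%) did. In 8 of the 14 the summit was nearer the ribosomal protein gene. The others lay in spacers of 90 to 454 bp, such as 64 bp before egl-30 and 159 bp past rpl-27. In the long spacers the distances past the gene were alike: 241 bp for rps-6, 255 bp for rpl-31, 155 bp for rpl-9, 142 bp for rps-9, 234 bp for rps-8, 91 bp for rpl-21 and 213 bp for rps-27, whose spacer had 19561 bp. In all 7 of these long spacers the summit lay within 255 bp of the ribosomal protein gene. The lincRNA gene linc-1 lay over the rpl-31 summit.

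Germ granule genes, whose products form perinuclear RNA granules of the germ line, had an IDR site past the 3′ end in 6 of 12 cases and before the start in 1 of 7. All 6 were nearer the germ granule gene. Besides cgh-1 these were car-1 (223 bp, signal 128.1), an LSm-domain RNA-binding protein gene, pgl-1 (101 bp, 112.4) and pgl-3 (189 bp, 78.2), genes of P granule scaffold proteins, and glh-1 (51 bp, 101.9) and glh-4 (82 bp, 86.4), genes of Vasa-like helicases. For pgl-1 the replicates had 39.3 and 77.8, and for glh-1 24.9 and 76.5. pgl-3 was also the downstream gene of the site 35 bp past hil-4, so it had IDR sites on both of its sides.

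Meiosis genes had sites past the 3′ end in 5 of 22 cases and before the start in 1 of 9. The strongest were mei-2 and the chromosome axis genes htp-2 (300 bp, signal 154.8) and htp-1 (51 bp, 116.3), followed by the cohesin subunit gene coh-3 (163 bp, 114.1). A pseudogene lay over the htp-2 summit. Histone genes had 4 of 19 past the 3′ end and 0 of 4 before the start, with his-64 (18 bp past, signal 111.8) the strongest. Histone genes have near-identical copies, so their sites are uncertain where reads could map to several. Proteasome genes had 3 of 14 and 0 of 10, but none of the 3 summits was nearer the proteasome gene. Small RNA pathway genes had 2 of 20 and 2 of 16, among them vig-1 on both sides and hrde-4 84 bp past its 3′ end. Neither site before a start was nearer the small RNA pathway gene. The site before vig-1 lay 433 bp from it and 165 bp past fcho-1.

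Oocyte and maternal genes had 2 of 12 past the 3′ end and 4 of 14 before the start. The summit lay 74 bp before chs-1, the gene of the eggshell's chitin synthase (signal 120.1), and 286 bp before egg-1, of an oocyte surface protein (77.5). Tubulin and actin genes, few in number, had 1 of 6 and 2 of 5, and cytochrome and ATP synthase genes had 3 of 32 and 1 of 17. Translation factors and tRNA synthetases had 2 of 38 and 2 of 25, and splicing factors 2 of 20 and 0 of 10.

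The lists of somatic genes were too small to read against the share over all spacers. Muscle (7 upstream and 3 downstream genes), neuron (10 and 10) and intestine genes (8 and 3) had 0 on either side. Among the large families, chemoreceptor genes had 2 of 817 past the 3′ end (0.245%) and 2 of 809 before the start (0.247%). The downstream genes among them, srg-69 and srx-86, had their sites nearer the other gene, as did collagen genes, with 0 of 50 and 2 of 54. Nuclear hormone receptor genes had 0 of 136 and 2 of 147, F-box genes 1 of 178 and 1 of 156, and C-type lectin genes 1 of 123 and 0 of 127. Major sperm protein genes had 1 of 14 and 0 of 8, and heterochromatin genes 0 of 18 and 1 of 8.

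Further features that the rule did not use were counted at the members. Soft-masked repeats held 26.8% of IDR summits and 40.9% of other summits. Another annotated gene, with its start within 500 bp or over the summit, was found at 38 of 280 IDR members (13.6%) and at 20.3% of the others. Pseudogenes were at 2.86% and 7.98%, piRNA genes at 2.50% and 5.06%, and unclassified ncRNA genes at 7.86% and 6.73%. These shares were not tested.

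The sequence around the summits was compared over 201 bp centred on each summit. The median GC content was 37.1% at IDR members, 34.3% at the other members and 36.8% at all 27148 autosomal candidates. The motif AATAAA, the poly(A) signal of mRNA 3′ ends, was found on either strand at 46.8% of IDR members and 46.9% of the others, against 39.6% of all autosomal candidates. On the strand of the genes alone it was at 25.2% of the other members, and on the opposite strand at 31.1%. IDR members nearer the upstream 3′ end had 24.1% and 31.6%, and those nearer the start 20.6% and 33.8%. TTTCAG, a common end of C. elegans introns, was at 30.2% and 39.7% of these on either strand, against 31.5% of the other members and 35.8% of all candidates. The motif TATAAA was at 17.5% and 22.1% of these, against 28.0% of the other members and 21.9% of all candidates. GAGAGA was at 18.9% of IDR members, 14.1% of the other members and 12.2% of all candidates. TTTTTTTT was at 17.5% of IDR members, 26.0% of the other members and 21.5% of all candidates. The herd-1/sql-1 stretch holds GAGAGA once on the gene strand, and the top-2 stretch holds none of the 5 motifs. A match describes the letters of the window only.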

How the data were processed

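HRDE-1 ChIP-seq was done in 1 group with 2 biological replicates. The authors called candidate sites per replicate and on pooled reads against a control and thresholded the pooled list by IDR, per the deposited file listings. The deposited signal values are a score of the caller on an unstated scale. The sources used here do not name the aligner, the caller or the IDR cutoff, so their effect on summit positions cannot be judged. Only lists on build ce11 were used. Summits are the start plus the offset column, counted from 1, and 98.99% of pooled summits and 79.6% of those of the IDR list lay within 1 bp of the interval centre. Gene ends are those of Ensembl release 115 on WBcel235, the assembly of ce11 (46926 genes, 19985 protein-coding), and sequences and soft-masking are those of the RefSeq genome of that assembly.

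Of 27148 autosomal candidates, 7661 lay between protein-coding genes and 7391 of these passed the 500 bp distance from tRNA, snoRNA and snRNA starts. Tests of side used 1 site per spacer, the strongest IDR site or else the strongest candidate, because sites of 1 spacer share their source, and ties at the midpoint were left out. Tests of orientation used all candidates. Spacers or candidates were taken as independent. Exact binomial tests, Fisher's exact tests and exact Cochran-Mantel-Haenszel tests were two-sided, with a threshold of 0.05 and Benjamini-Hochberg adjustment within each family. Python 3.11.15, NumPy 2.4.6, pandas 2.3.3 and SciPy 1.17.1 were used, and placing and tests were checked on simulated data. Named sites are the 12 strongest IDR members, the 6 strongest nearer a start, the strongest per side and length class, and up to 4 genes per list. Further ribosomal and germ granule genes and the 4 sites within 250 bp of a start were named after their values were seen. The members and gene lists were chosen with earlier results of these data known.

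Alternatives were the interval centre, all sites, the stronger part of the IDR list, coding boundaries, spacers without other genes, 1000 bp or no distance from small RNA genes, no soft-masked summits, each replicate alone, other sets of other candidates, no sites within 50 bp of the midpoint, other length classes and other windows.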

Additional observations from a re-analysis of the deposited data

How the results depend on the processing

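Of 272 recomputed values, 237 kept their direction and their side of the threshold. This count includes IDR shares from runs that changed only the other candidates, where the IDR shares could not change. The share of IDR spacers on the upstream side and the odds ratio with length held fixed kept both in every alternative run. The orientation comparisons did too, but no run held spacer length fixed for them. The share of IDR spacers on the upstream side did not keep its size, since it fell to 57.2% with coding boundaries. Under the same boundaries several other results changed. The side of the other candidates turned to 48.1% and that of IDR sites up to 500 bp to 27.8%, and the other candidates up to 500 bp passed at 22.4% and over 5000 bp at 55.2%. No longer past the threshold were the shares at 500 to 1000 bp (60.0% for IDR sites, 50.4% for others), the odds ratios up to 500 bp (1.33) and at 500 to 1000 bp (1.48), and the 250 bp windows (71.4% for IDR sites, 54.1% for others, odds ratio 2.11). Windows from the codons began inside the genes, where no member could lie, so they had less room for sites. With the stronger part of the IDR list, calls were lost up to 500 bp (61.4%, odds ratio 1.60) and at 500 to 1000 bp (odds ratio 2.42), and gained at 1000 to 2000 bp (odds ratio 9.69) and for other candidates over 5000 bp (55.3%). The odds ratio at 1000 to 2000 bp also passed with the interval centre (2.58), all sites (3.25), no other gene in the spacer (3.09), no distance from small RNA genes (2.97) and no soft-masked summits (3.79), and the last lost the odds ratio up to 500 bp (1.49). Other candidates over 5000 bp passed with all sites (52.9%), with no distance from small RNA genes (54.9%) and in their strongest tercile (66.5%), where the odds ratio at 500 to 1000 bp (1.61) and that of the windows (2.80) were lost. Windows of 100 bp gave an odds ratio of 2.68 and no call. Each replicate alone, with its strongest 1341 sites in place of the IDR list, gave 56.6 to 58.1% for these sites up to 500 bp. The odds ratios were then 1.36 to 1.39 up to 500 bp and 3.54 to 4.87 at 1000 to 2000 bp. Other candidates over 5000 bp passed without replicate 2 (56.2%) but not without replicate 1 (53.9%). The cause of these changes was not tested. For 3 odds ratios no value could be given, because no IDR site was on the downstream side: over 5000 bp and in the windows with the stronger part of the IDR list, and over 5000 bp with no other gene in the spacer. No paired analysis was possible because there is only 1 group. Read depth is unknown, so the weakest detectable site cannot be given.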
